A study of Pan troglodytes with 38 samples.

Results

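Periostin is a secreted protein that activated fibroblasts and valve cells deposit in the extracellular matrix, and the 12 chimpanzee hearts with the highest level of its mRNA, POSTN, were compared here with the 12 hearts that had the lowest. The groups were chosen by the measured value itself: 37 of the 38 hearts of the series were ranked by their counts-per-million value of POSTN (CPM, the count of a gene scaled to the total count of that heart, leaving out the 13 mitochondrially encoded genes), and heart 549 was not ranked. The 24 hearts at both ends are called periostin-high and periostin-low below, and 13 hearts lay between them. The POSTN level is therefore a description, and the tests concern only the other genes and the records of the hearts.

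Periostin binds integrins on the cell surface and takes part in assembling collagen I, fibronectin and tenascin C and in the activation of the collagen cross-linking enzyme lysyl oxidase. In the adult mammalian heart it is scarce outside valves and is produced by fibroblasts that transforming growth factor beta (TGF-beta) or mechanical load has activated, so that it serves as a marker of fibroblast activation and scar formation. The question asked of these data was which other genes, beginning with those of the matrix, differed between hearts at the ends of the POSTN range.

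Each sample was post-mortem heart tissue from 1 captive-born chimpanzee, sequenced as polyA RNA, and no engineered allele is given for any animal. According to the study, hepatitis B or C virus had been given to some of the laboratory animals. The chamber sampled is not given in the sources used here, and some of the animals are first-degree relatives. The periostin-high hearts were from 7 females and 5 males aged between 11 and 53 years where an age was recorded (11 hearts), and the periostin-low hearts from 7 females and 5 males aged between 15 and 49 years (9 hearts). RNA had been extracted in 2018 or in an earlier year, called so below, and 5 of the periostin-high against 10 of the periostin-low hearts had RNA of 2018, which left 2 periostin-low hearts (95A014 and 570) of the earlier year. Hearts 554 and 554_2, both periostin-high, are different animals in the study's sample table. The study's sample table notes hepatitis C virus for 2 periostin-high hearts (4X0267 and 4X0550), hepatitis B virus for 2 periostin-low hearts (4X0095 and 4X0339) and exposure to HIV with a negative test for 1 periostin-low heart (4X0357), and 7 hearts of each group came from the Yerkes center.

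No record differed between the groups past an adjusted p of 0.05 over the 8 records compared. The RNA integrity number (RIN, on a scale where higher is more intact) averaged 6.56 ± 1.23 (SD, n = 12) in periostin-high and 5.37 ± 2.10 (SD, n = 12) in periostin-low hearts (two-sided permutation test within extraction year, p = 0.137, adjusted p = 0.339). The count without mitochondrially encoded genes averaged 45219020 ± 9125512 (SD, n = 12) against 35826449 ± 10482836 (SD, n = 12) (same test, p = 0.0308, adjusted p = 0.247). Mitochondrially encoded genes took 31.2% ± 9.69 (SD, n = 12) of the counts against 39.3% ± 10.8 (SD, n = 12) (same test, p = 0.169, adjusted p = 0.339), and extraction year was split with an adjusted p of 0.339 in Fisher's exact test. Extraction year entered every fit below unless stated otherwise. The part that integrity and mitochondrial share had in the results was tested only by adding them to the fit. The part of depth was not tested.

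Total counts of the 24 hearts were between 43892814 and 83580351, and POSTN itself had between 83 and 21595 counts per heart. The markers of heart muscle were abundant in both groups: MYH7, the ventricular and slow myosin heavy chain, had at least 1418 CPM in every one of the 24 hearts and TTN, the giant sarcomere spring titin, at least 347 CPM. A few libraries stood apart. The median correlation of log2 CPM with the other hearts was 0.764 for Little_R (periostin-low), 0.820 for 537 (periostin-high) and 0.854 for 529 (periostin-low), and the lowest TTN values of each group were those of 537 (818 CPM) and Little_R (347 CPM). The study also describes 537 and Little_R as outliers that share a technical batch. The fits below took the year of RNA extraction and not its date as a term, so that the part of a finer batch was not tested. Many of the values below are given with and without 537 and Little_R.

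POSTN (ENSPTRG00000005794) declined over the 37 ranked hearts from 376 CPM in 4x0519 to 3.52 CPM in 495, a ratio of 107. The periostin-high hearts were, in descending order, 4x0519 at 376, 4X0550 at 320.3, 554_2 at 262, 88A020 at 227, 317 at 209.8, 462 at 197, 554 at 192, 338 at 174, 4X0267 at 165, 537 at 160.1, 623 at 159 and 4x0043 at 131 CPM. The periostin-low hearts ran from 95A014 at 59.3, 558 at 55.1, 4X0095 at 48.6, 389 at 37.8, 570 at 32.3, 676 at 24.2, 4X0357 at 20.2, 4X0339 at 13.4, 724 at 12.5 and 529 at 10.3 down to Little_R at 3.66 and 495 at 3.52 CPM. The spread was wider at the low end, where the highest heart had more than 10 times the POSTN of the lowest, than at the high end, where it had less than 3 times. The group means were 214 ± 72.4 (SD, n = 12) and 26.7 ± 19.7 (SD, n = 12) CPM, a ratio of 8.02. The hearts just outside the groups were 503 at 127 and 522 at 64.4 CPM, so that the rule divided a continuous series: the lowest periostin-high heart had 2.21 times the level of the highest periostin-low heart.

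**Figure D1:**
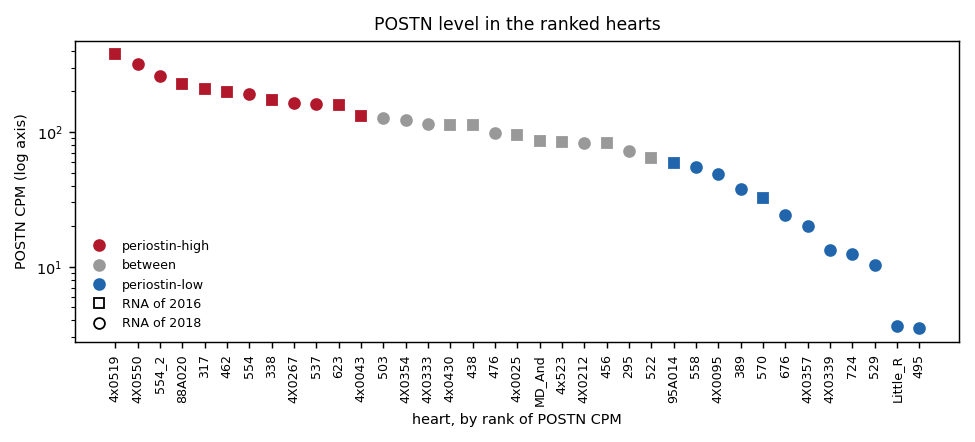
POSTN CPM (vertical log axis) in the 37 ranked hearts, ordered from the highest to the lowest on the horizontal axis, with periostin-high hearts in red, periostin-low hearts in blue, the 13 hearts between them in gray, RNA of the earlier year as squares and RNA of 2018 as circles. The values decline without a gap from 376 to 131 CPM in the periostin-high hearts and spread from 59.3 to 3.52 CPM in the periostin-low hearts, where Little_R and 495 lie lowest.

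Between the groups no other gene passed the test. Of 16297 genes tested with edgeR's quasi-likelihood test and Benjamini-Hochberg adjustment, 0 (0%) had an adjusted p under 0.05, and the smallest adjusted p was 0.241. At an unadjusted p under 0.05 there were 260 higher genes (1.60% of those tested) and 668 lower genes (4.10%), and 928 genes in both directions are 5.69% of those tested. Of all genes tested 46.5% had a positive fold change. Counts of list members below are to be read beside these shares. No gene other than POSTN had groups that did not overlap (0%, in either direction). The limma-voom test called 0 genes as well, with 647 at an unadjusted p under 0.05, whereas DESeq2 called 5 higher and 10 lower genes (0.0920% of those tested). DESeq2's own adjustment counted POSTN, which had chosen the groups, among its genes, so that its adjusted p-values may be too low. Leaving out 537 raised the number of genes at an unadjusted p under 0.05 to 2221 and leaving out 570 lowered it to 531. When 537 and Little_R were both left out and the other hearts ranked again, which brought in 503 and 522, 948 genes were higher (5.89%) and 1546 lower (9.60%) at an unadjusted p under 0.05, again with 0 past the adjusted threshold. All fold changes between the groups below are therefore values that did not pass the adjusted threshold in the comparison of 12 with 12 hearts, and they are given with their unadjusted p where that was under 0.05. A p that misses the threshold does not show that a gene was equal in both groups.

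The fibrillar collagens, the main load-bearing fibers of scar and the matrix into which periostin is built, did not differ between the groups beyond the spread of the hearts. COL1A1 (ENSPTRG00000009393), a chain of collagen I, was between 22.8 and 439 CPM (median 70.3) in periostin-high and between 17.8 and 309 CPM (median 78.0) in periostin-low hearts, a log2 fold change (periostin-high minus periostin-low, in all that follows) of -0.019 (95% interval -1.17 to 1.13). High and low values of COL1A1 stood side by side in both groups. The partner chain COL1A2 differed by -0.10 on the log2 scale (95% interval -1.37 to 1.17) and the collagen III gene COL3A1 by -0.046 (95% interval -1.28 to 1.19), intervals that reach a doubling in both directions. Over the 7 fibrillar collagen genes tested the median log2 fold change was -0.051, with 0 at an unadjusted p under 0.05, beside a median of -0.024 over all genes tested. Without 537 and Little_R that median was -0.65, and 537 and 529 were each the highest of the 24 hearts in 3 of the 7 genes. Such counts, here and below, stand beside the shares over all genes tested. The highest of the 24 hearts was 537 in 13.7% of all genes, 529 in 10.7%, Little_R in 8.14%, 4X0267 in 2.05% and 95A014 in 1.82%.

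Among the 18 other collagens tested, 2 were higher at an unadjusted p under 0.05, and the median was 0.30. COL21A1 (ENSPTRG00000018302), a collagen associated with the surface of fibrils, was between 8.56 and 57.8 CPM (median 38.8) in periostin-high and between 2.51 and 38.5 CPM (median 16.4) in periostin-low hearts, a log2 fold change of 0.90 ± 0.37 (SE, p = 0.0219). The lowest periostin-high value of COL21A1 was that of 537, and the value without 537 and Little_R was 0.80. The other gene was COL4A3, a basement membrane collagen, at 0.65 ± 0.28 (SE, p = 0.0280). COL12A1, another fibril-associated collagen, had 0.63 with a 95% interval of -0.44 to 1.70. COL22A1 was not on this list. Its log2 fold change was 3.98 (p = 9.44e-05, adjusted p = 0.361 in edgeR's quasi-likelihood test), and it is described below with the genes that DESeq2 called.

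Of 23 genes tested that fold, modify and cross-link collagen, 15 had a negative fold change, beside 53.5% of all genes tested, 1 was lower at an unadjusted p under 0.05 and the median was -0.19. LOX, the lysyl oxidase that periostin is known to bring into contact with its activating protease, was between 3.69 and 46.1 CPM in periostin-high and between 3.85 and 24.2 CPM in periostin-low hearts, with a log2 fold change of 0.18 (95% interval -0.64 to 0.997). BMP1, that protease, had -0.57 (95% interval -1.23 to 0.087). The gene at an unadjusted p under 0.05 was SERPINH1, the collagen chaperone HSP47 and also a heat shock protein, with -2.25 ± 0.91 (SE, p = 0.0200). Its level was 5786 CPM in Little_R and between 70.0 and 799 CPM in the other periostin-low hearts, against 28.3 to 533 CPM in periostin-high hearts, and without 537 and Little_R the fold change was -1.45.

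The matricellular and activated fibroblast genes, the class to which POSTN belongs, gave 1 higher and 2 lower genes at an unadjusted p under 0.05 among 20 tested, with a median of 0.23 and, without 537 and Little_R, of -0.21. FN1, fibronectin, was between 112 and 1721 CPM in periostin-high and between 70.0 and 962 CPM in periostin-low hearts, with a log2 fold change of 0.28 (95% interval -0.81 to 1.37). TNC, tenascin C, a matrix protein of injured tissue that binds periostin, had -0.70 (95% interval -2.08 to 0.68), and CCN2, the connective tissue growth factor induced by TGF-beta, had 0.73 (95% interval -0.50 to 1.96). For FN1, TNC and CCN2 the groups overlapped and the intervals held 0. THBS4, a thrombospondin of stressed muscle, had 0.65 (95% interval -0.35 to 1.66). THBS1, a thrombospondin that releases TGF-beta from its latent form, had -2.24 ± 0.96 (SE, p = 0.0279), with medians of 24.6 and 19.1 CPM that lie the other way round from the fold change, and the highest periostin-low heart was at 1079 CPM against 95.5 CPM for the highest periostin-high heart. The other lower gene was CCN5, a relative of CCN2, at -0.93 ± 0.43 (SE, p = 0.0399).

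CILP (ENSPTRG00000007177), a cartilage matrix protein that activated cardiac fibroblasts also make, was the gene of this class that was higher at an unadjusted p under 0.05. It was between 3.52 and 400.2 CPM (median 33.9) in periostin-high and between 1.69 and 84.4 CPM (median 15.3) in periostin-low hearts, a log2 fold change of 1.82 ± 0.71 (SE, p = 0.0167). The highest value was that of 537, and the next periostin-high heart, 4x0043, was at 74.4 CPM, below the 84.4 CPM of the periostin-low heart 529. Without 537 and Little_R the log2 fold change of CILP was 0.52. COMP, another cartilage and tendon matrix protein, went from 1.21 to -0.35 when these hearts were left out, and to -1.44 when 537 alone was, with 537 at 129 CPM.

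The small leucine-rich proteoglycans, which coat collagen fibrils and set their diameter, had 9 of 10 tested genes with a positive fold change and a median of 0.67, and 1 was higher at an unadjusted p under 0.05. FMOD (ENSPTRG00000001872), fibromodulin, was between 5.25 and 491 CPM (median 30.2) in periostin-high and between 3.55 and 80.2 CPM (median 17.6) in periostin-low hearts, a log2 fold change of 1.98 ± 0.72 (SE, p = 0.0114). The 4 periostin-high hearts 4x0519, 462, 537 and 4x0043 lay above every periostin-low heart, and the other 8 lay within their range. LUM, lumican, had 0.74 (95% interval -0.62 to 2.11), OGN, osteoglycin, 0.84 (95% interval -0.59 to 2.27) and DCN, decorin, -0.014 (95% interval -1.07 to 1.04). In 6 of the 10 genes 537 was the highest of the 24 hearts, and without 537 and Little_R the median of the list was 0.018 and FMOD stood at 0.31.

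Elastic fiber genes showed the same dependence. Of 16 tested, 13 had a positive fold change with a median of 0.19, and LTBP2, which binds microfibrils, was the gene at an unadjusted p under 0.05 with 1.33 ± 0.60 (SE, p = 0.0374). Its level was 735 CPM in 537, which was the highest of the 24 hearts in 11 of the 16 genes. Without 537 and Little_R the median was -0.24 and LTBP2 had 0.48.

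On the receiving side, the integrins and other partners of periostin had 5 positive and 5 negative fold changes among 10 tested, with a median of -0.24 that was -0.30 without 537 and Little_R. ITGAV, the alpha chain of the integrins that bind periostin, had a median of 446 CPM in periostin-high and 316 CPM in periostin-low hearts and a log2 fold change of 0.30 (95% interval -0.32 to 0.91). Of its beta partners, ITGB5 had 0.082 (95% interval -0.24 to 0.41) and ITGB3 -0.49 (95% interval -1.11 to 0.14). For ITGB5 the interval leaves out a change of 1.5 times in either direction. The 1 gene at an unadjusted p under 0.05 was ITGA5, the alpha chain of the fibronectin receptor, with -0.73 ± 0.32 (SE, p = 0.0326).

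The TGF-beta pathway, the best known inducer of POSTN, had 0 of 25 tested genes at an unadjusted p under 0.05 and a median of -0.15. The ligand genes were measured at medians between 6.73 and 15.5 CPM in periostin-high hearts. TGFB1 had a log2 fold change of -0.45 (95% interval -1.16 to 0.27), TGFB2 of 0.0029 (95% interval -0.92 to 0.92) and TGFB3 of -0.072 (95% interval -0.70 to 0.56).

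Proteases that cut the matrix held the lowest unadjusted p of any gene on the matrix lists, which did not include COL22A1, a collagen with a lower one. ADAMTS4 (ENSPTRG00000001576), an aggrecanase that cleaves proteoglycans and is induced by inflammatory cytokines, was between 1.57 and 30.7 CPM in periostin-high and between 4.601 and 323 CPM in periostin-low hearts, a log2 fold change of -2.89 ± 0.71 (SE, p = 0.000422, adjusted p = 0.459 in edgeR's quasi-likelihood test). Its highest values were those of 529, 570, 495 and 676, at 323, 179, 146 and 96.5 CPM. The remaining 8 periostin-low hearts had at most 39.97 CPM and overlapped with the periostin-high hearts. Without 537 and Little_R the value was -2.92, and it was -4.06 among hearts of the earlier year and -2.26 among hearts of 2018. The periostin-low hearts of the earlier year were 570 and 95A014. Heart 95A014 was at 7.71 CPM, within the periostin-high range, so that the value of that year rests on 570. ADAMTS9, a related protease, had -1.43 ± 0.45 (SE, p = 0.00378), whereas ADAMTS8 had 0.87 ± 0.36 (SE, p = 0.0245). The plasminogen activator gene PLAU had -0.70 ± 0.33 (SE, p = 0.0458). Of the 22 proteases and inhibitors tested these 4, 1 higher and 3 lower, were at an unadjusted p under 0.05, and the median was -0.21.

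**Figure D2:**
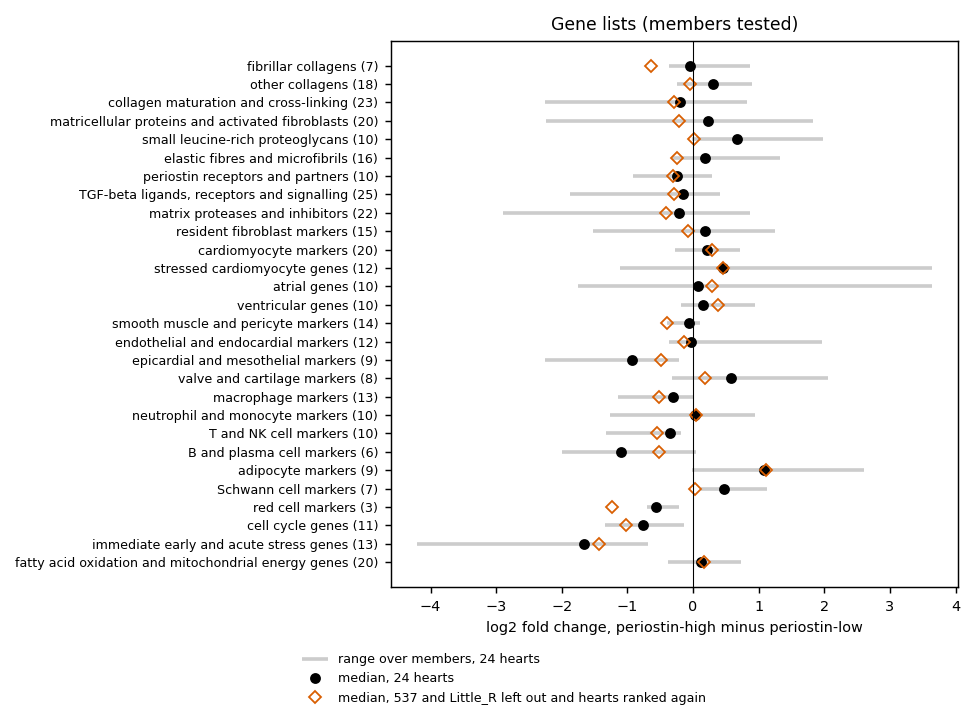
Log2 fold change (horizontal axis, periostin-high minus periostin-low) over the tested members of 28 gene lists, with the number tested in brackets, the gray bar from the lowest to the highest member, the black point at the median over 24 hearts and the orange diamond at the median after 537 and Little_R were left out and the hearts ranked again. Medians of the matrix lists lie within 0.7 of 0, the small leucine-rich proteoglycans move from 0.67 to 0.02 without these hearts, and the largest negative median, -1.66, is that of the immediate early and acute stress genes.

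Single hearts turned the sign of other list medians. Without 537 the median was -0.083 for the other collagens, -0.34 for the matricellular and activated fibroblast genes, -0.29 for the elastic fiber genes and -0.39 for the resident fibroblast markers described next, and without 529 it was 0.017 for the TGF-beta pathway.

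In whole tissue, fewer cells of a type and less RNA per cell cannot be told apart. With that limit, the markers of resident fibroblasts, the cells from which periostin-producing cells arise, gave a median of 0.18 over 15 genes, with 1 higher at an unadjusted p under 0.05, the basement membrane gene LAMA2 at 0.56 ± 0.20 (SE, p = 0.00917). PDGFRA, the growth factor receptor that marks these cells, was between 14.7 and 252 CPM in periostin-high and between 22.7 and 136 CPM in periostin-low hearts (log2 fold change 0.20, 95% interval -0.68 to 1.08). TCF21, a transcription factor of resident fibroblasts, had -0.62 (95% interval -1.84 to 0.59). The smooth muscle and pericyte markers had a median of -0.057 with 0 of 14 at an unadjusted p under 0.05, and ACTA2, the smooth muscle actin that myofibroblasts also make, had 0.045 (95% interval -0.86 to 0.95). The summed level of the fibroblast markers was between 804 and 4851 CPM in periostin-high and between 743 and 2798 CPM in periostin-low hearts.

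Valve tissue is a known source of periostin, so its markers were looked at next. Among 8 valve and cartilage markers tested, 7 had a positive fold change and the median was 0.58, and 0.19 without 537 and Little_R. TNMD, tenomodulin, a protein of tendon and valve chords, was the 1 gene at an unadjusted p under 0.05, with 2.06 ± 0.62 (SE, p = 0.00263) and 0.73 without these hearts. Its level was 12.97 CPM in 537 and at most 3.21 CPM in the other 23 hearts. The cartilage proteoglycan gene ACAN, HAPLN1 and CNMD were at 0 counts in some hearts, and the summed valve and cartilage level was between 21.99 and 366 CPM in periostin-high and between 31.8 and 217 CPM in periostin-low hearts. Whether valve tissue in the pieces sampled has a part in the POSTN levels was not tested.

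Endothelial and endocardial markers stayed near 0 with a median of -0.034, apart from NPR3 (ENSPTRG00000016773), the clearance receptor of natriuretic peptides and an endocardial marker. NPR3 was between 0.384 and 12.4 CPM (median 2.31) in periostin-high and between 0.0667 and 1.32 CPM (median 0.429) in periostin-low hearts, a log2 fold change of 1.96 ± 0.57 (SE, p = 0.00215, adjusted p = 0.673 in edgeR's quasi-likelihood test). Of the periostin-high hearts 7 lay above every periostin-low heart, 4x0519 and 317 highest at 12.4 and 10.4 CPM, and the other 5 lay within the range of the periostin-low hearts. Without 537 and Little_R the value was 2.19. The Schwann cell markers, of the sheath cells of nerves, had positive fold changes in 7 of 7 genes with a median of 0.47 (0.032 without 537 and Little_R), 0 of them at an unadjusted p under 0.05. The epicardial and mesothelial markers had negative ones in 9 of 9 with a median of -0.93 (-0.49), and in 7 of these 9 Little_R was the highest of the 24 hearts. KRT18, a keratin of epithelial and mesothelial cells, was the 1 epicardial gene at an unadjusted p under 0.05, with -2.08 ± 0.69 (SE, p = 0.00623), and its 2 highest values were 44.3 CPM in Little_R and 30.3 CPM in 495. KRT18 had -1.19 without 537 and Little_R.

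Blood and immune markers split by extraction year. The T and NK cell markers had a median of -0.35 over 10 genes, 2.39 among hearts of the earlier year and -1.17 among hearts of 2018, and the B and plasma cell markers -1.09, 5.07 and -2.08. The values of the earlier year rest on the 2 periostin-low hearts of that year. Macrophage markers had a negative fold change in 12 of 13 genes with a median of -0.30 and 0 at an unadjusted p under 0.05, and CD163, a macrophage scavenger receptor, had -0.68 (95% interval -1.84 to 0.48). The neutrophil and monocyte markers had a median of 0.031 over 10 genes (2.47 in the earlier year and -0.73 in 2018) and the red cell markers one of -0.56 over 3 (3.27 and -1.43). The periostin-low heart 529 was the highest of the 24 in 7 of the 10 T and NK cell genes and in 3 of the 3 red cell genes, and without it these medians turned to 0.52 and 0.70. The neutrophil gene S100A8 had -1.26 (95% interval -3.46 to 0.94) and the red cell gene HBB -0.56 (95% interval -3.55 to 2.42). The adipocyte markers had the highest median of the 28 lists, 1.09, and in 7 of 9 of them 1 periostin-high heart, 4X0267, was the highest of the 24, so that the median was -0.085 without it. LPL, the lipoprotein lipase that heart muscle also makes, was the 1 of them at an unadjusted p under 0.05, at 1.09 ± 0.36 (SE, p = 0.00591).

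Over 20 cardiomyocyte markers 17 had a positive fold change and the median was 0.21, with 0 at an unadjusted p under 0.05. TTN had 0.62 (95% interval -0.21 to 1.44), MYH7 0.68 (95% interval -0.20 to 1.56), the atrial-type and fast myosin gene MYH6 0.018 (95% interval -1.65 to 1.69) and the ventricular light chain gene MYL2 0.71 (95% interval -0.25 to 1.68). The atrial light chain gene MYL7 had -1.29 (95% interval -2.84 to 0.25), and its level was at most 745 CPM in any of the 24 hearts. The atrial list had a median of 0.08 over 10 genes, with NPPA higher and the channel gene KCNJ3 lower at an unadjusted p under 0.05, and the ventricular list one of 0.15 over 10. Genes of fatty acid oxidation and mitochondrial energy supply, the main fuel path of heart muscle, had a median of 0.12 over 20, with 0 at an unadjusted p under 0.05. KCNJ3 was at most 1.75 CPM in any of the 24 hearts.

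Genes of stressed cardiomyocytes held the most marked positive values of the muscle lists. NPPA (ENSPTRG00000000155), which encodes the atrial natriuretic peptide and is switched on again in loaded ventricles, was between 2.70 and 11386 CPM (median 166) in periostin-high and between 1.36 and 755 CPM (median 8.06) in periostin-low hearts, a log2 fold change of 3.64 ± 1.497 (SE, p = 0.0226). The 4 highest of the 24 hearts were 4x0519, 4X0550, 317 and 462, all periostin-high, while 4X0354, which lay between the groups in POSTN, had 12685 CPM, the periostin-high heart 4X0267 was at 2.70 CPM and the periostin-low heart 558 at 755 CPM. The fold change turned on 1 heart, being -0.19 without 4X0550, and it was 6.26 among hearts of the earlier year and 2.87 among hearts of 2018. NPPB, the gene of the B-type peptide, had 1.23 (95% interval -1.14 to 3.61). XIRP2 (ENSPTRG00000012600), an actin-binding protein of the intercalated disc that responds to load, was between 131 and 1527 CPM (median 552) in periostin-high and between 46.3 and 489.7 CPM (median 207) in periostin-low hearts, a log2 fold change of 1.46 ± 0.43 (SE, p = 0.00209, adjusted p = 0.673 in edgeR's quasi-likelihood test). XIRP2 was at 0.93 among hearts of the earlier year and 1.73 among hearts of 2018, and the lowest values were 46.3 CPM in 495 and 58.2 CPM in Little_R. NPPA and XIRP2 were the 2 genes at an unadjusted p under 0.05 among 12 stressed cardiomyocyte genes, whose median was 0.46 with and without 537 and Little_R but -0.072 without 4X0550.

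The immediate early and acute stress genes, which are switched on within minutes of an insult, had a negative fold change in 13 of 13 genes and a median of -1.66, and 6 were lower at an unadjusted p under 0.05. DNAJB1, a heat shock co-chaperone, was between 34.4 and 273 CPM (median 48.3) in periostin-high and between 35.9 and 15316 CPM (median 65.4) in periostin-low hearts, a log2 fold change of -3.76 ± 1.61 (SE, p = 0.0285). The periostin-low range was set by Little_R at 15316 CPM, followed by 495 at 1341 and 529 at 740.0 CPM, and the medians of the groups were close. Without 537 and Little_R it was -1.63. HSPA1B, the inducible heat shock protein HSP70, whose reads cannot be separated safely from its near-identical copy HSPA1A, had -2.97 ± 1.20 (SE, p = 0.0201) and ATF3, a stress transcription factor, -2.67 ± 1.08 (SE, p = 0.0203), which were -1.37 and -2.01 without these hearts. The list median was -2.37 among hearts of 2018 and 0.18 among hearts of the earlier year, where 2 periostin-low hearts entered. In 10 of the 13 genes the periostin-low heart 529 was the highest of the 24.

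Cell cycle genes gave 6 of 11 lower at an unadjusted p under 0.05, with a median of -0.76 (-2.03 among hearts of the earlier year and -0.21 among hearts of 2018). MKI67, the proliferation marker Ki-67, was between 0.346 and 6.14 CPM (median 0.712) in periostin-high and up to 16.1 CPM (median 0.834) in periostin-low hearts, with a log2 fold change of -1.23 ± 0.50 (SE, p = 0.0214). In 10 of the 11 genes the periostin-low heart 95A014 was the highest of the 24, and MKI67 stood there at 16.1 CPM. Without 95A014 the median of the list was 0.11, which reverses its sign. The 28 lists held 363 tested members, and 8 genes were on more than 1 list. With each gene counted once, 12 were higher and 21 lower at an unadjusted p under 0.05. Over all genes tested these shares were 1.60% and 4.10%. Of the list medians 14 were above 0 and 14 below.

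Of the 15 genes that DESeq2 called, 1 was on any of the 28 lists, ADAMTS4. The others, and CSF3 (ENSPTRG00000024346), IL6, HSPH1, ENGASE, CCN5, PLAU, LAMA2 and LPL elsewhere in the text, were chosen for naming after their values were seen. The 5 higher genes were GUCA1C (ENSPTRG00000015197), COL22A1, NSG2, CRYM and TRPM3. GUCA1C, of the family of guanylate cyclase activating proteins, was between 0.0426 and 6.56 CPM in periostin-high and between 0 and 0.315 CPM in periostin-low hearts, a log2 fold change of 4.18 ± 0.82 (SE) in edgeR and an adjusted p of 0.00162 in DESeq2 against 0.241 in edgeR's quasi-likelihood test. NSG2, a vesicle protein best known from neurons, was at most 1.31 CPM in periostin-low hearts and had a median of 1.85 CPM in periostin-high hearts, with 1.58 ± 0.32 (SE). Its level was above every periostin-low heart in 8 of the 12 periostin-high hearts, and all values were low. COL22A1, a collagen of tissue junctions, had 3.98 ± 0.85 (SE), which was 1.66 without 537, at 24.3 CPM the highest heart, and Little_R. CRYM, a thyroid hormone binding protein, had a median of 7.21 CPM against 1.12 CPM and a log2 fold change of 2.65 ± 0.62 (SE).

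The 10 genes that DESeq2 called lower were PLA2G4E, B3GNT7, SLC5A10, 3 genes with no symbol and 4 described here: CCL2, a chemokine that draws monocytes, SELE, the endothelial adhesion molecule E-selectin, ADAMTS4, and KCNK3, a potassium channel. SELE was between 0.255 and 3.16 CPM (median 1.45) in periostin-high and between 0.5001 and 48.6 CPM (median 3.73) in periostin-low hearts, with -2.67 ± 0.60 (SE, adjusted p = 0.361 in edgeR's quasi-likelihood test). CCL2 was at most 52.5 CPM in periostin-high and at most 764 CPM in periostin-low hearts, with medians of 10.95 and 14.6 CPM. The adjusted p of CCL2 in DESeq2, 0.0491, was the highest of the called genes, in an adjustment that counted POSTN. CSF3, the granulocyte growth factor G-CSF, had the lowest unadjusted p of the lower genes in edgeR, and -7.49 ± 1.51 (SE, adjusted p = 0.241 in edgeR's quasi-likelihood test). That fold change rests on 570 and 529, at 73.9 and 71.0 CPM, since no other of the 24 hearts exceeded 3.13 CPM. The same hearts were high in IL6, the cytokine interleukin 6, at 141 CPM in 570 and 76.1 CPM in 529, followed by Little_R at 38.8 CPM, against at most 2.36 CPM in any periostin-high heart.

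**Figure D3:**
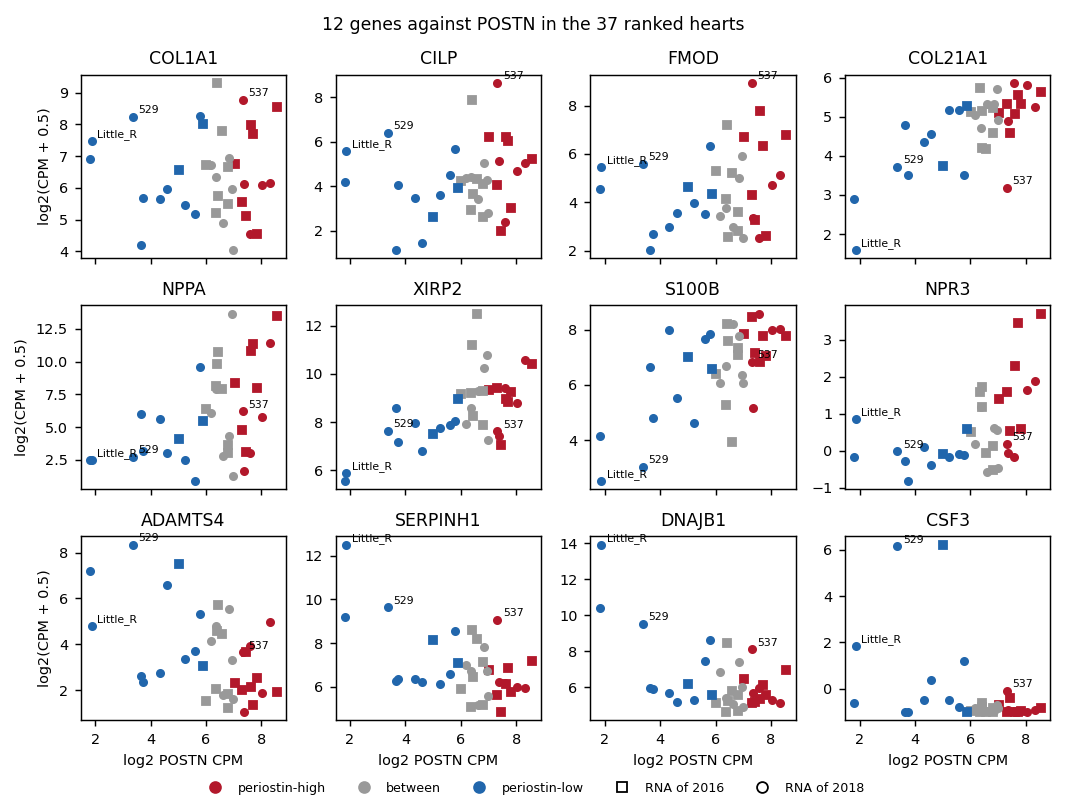
Log2 of CPM plus 0.5 of 12 genes (vertical axes) against log2 POSTN CPM (horizontal axes) in the 37 ranked hearts, with group by color, extraction year by shape, and 537, 529 and Little_R named. COL1A1 shows no trend, CILP and FMOD are highest in 537, SERPINH1 and DNAJB1 are highest in Little_R at the low end, and CSF3 is raised in few hearts.

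When POSTN was taken as a continuous measure over all 37 ranked hearts instead, many genes were called. Of 16857 genes tested with edgeR's quasi-likelihood test, 591 (3.51%) rose and 1120 (6.64%) fell with log2 POSTN CPM at an adjusted p under 0.05, where a slope is the log2 change per doubling of POSTN CPM. NPPA had a slope of 1.63 ± 0.37 (SE, adjusted p = 0.00482 in edgeR's quasi-likelihood test) and COL21A1 one of 0.40 ± 0.079 (SE, adjusted p = 0.00124 in edgeR's quasi-likelihood test). Both were called whichever 1 of the 37 hearts was left out and lost the call without the 3 hearts that had the least POSTN (adjusted p = 0.137 and 0.2003 in the same edgeR test). TTN had 0.31 ± 0.085 (SE, adjusted p = 0.0164 in edgeR's quasi-likelihood test) and lost the call without Little_R (adjusted p = 0.111), and the glial and Schwann cell gene S100B had 0.52 ± 0.14 (SE, adjusted p = 0.0161 in the same edgeR test) and lost it too (adjusted p = 0.104). Of the 7 fibrillar collagens 0 were called in either direction, and COL1A1 had a slope of -0.065 ± 0.13 (SE), and of the 10 small leucine-rich proteoglycans 0 were called, FMOD having 0.30 ± 0.16 (SE). Of 23 collagen maturation genes 6 fell, SERPINH1 among them with -0.70 ± 0.11 (SE), and without Little_R 0 did.

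Heat shock genes were among the falling genes. The lowest p of all was that of ENGASE, an enzyme that trims sugar chains from proteins, with a slope of -0.50 ± 0.062 (SE, adjusted p = 1.04e-05 in edgeR's quasi-likelihood test), and it was still called without Little_R (adjusted p = 0.0123 in edgeR's quasi-likelihood test) but not without the 3 hearts that had the least POSTN (slope -0.13, adjusted p = 0.284). HSPH1, a chaperone of the HSP110 family, had a slope of -0.84 ± 0.12 (SE, adjusted p = 2.26e-05 in edgeR's quasi-likelihood test) and DNAJB1 one of -0.99 ± 0.14 (SE, adjusted p = 2.29e-05 in the same test). Without Little_R the adjusted p was 0.116 for HSPH1 and 0.0454 for DNAJB1, and without the 3 hearts that had the least POSTN (495, Little_R and 529) the slopes were -0.03 and -0.014. The slope of CSF3 was -2.28 ± 0.33 (SE, adjusted p = 4.62e-05 in edgeR's quasi-likelihood test), that of KCNK3 -0.73 ± 0.14 (SE) and that of B3GNT7, a glycan-extending enzyme, -0.50 ± 0.11 (SE). These 3 genes were still called without those 3 hearts, each with an adjusted p of 0.0319 in edgeR's quasi-likelihood test. They were also called whichever 1 heart was left out. For CSF3 neither check left out 529 and 570 together, the hearts on which its fold change between the groups rests. Whether its slope rests on that pair was not tested. NPR3 was not called over 37 hearts (adjusted p = 0.0643). It was called without the 3 hearts that had the least POSTN (adjusted p = 0.0319 in the same edgeR test, slope 0.78).

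The continuous result depended on few hearts. Without Little_R 45 genes rose and 122 fell, without the 3 hearts with the least POSTN 5 rose and 22 fell, and without 537 1516 rose and 2478 fell. Of the 1711 called genes, 151 were still called without Little_R, 12 without these 3 hearts, and 102 (27 rising and 75 falling) whichever 1 heart was left out. Leaving out 495, 529, 4X0550, 554 or 503 lowered the number of rising genes to 174, 302, 246, 389 and 393 respectively, and leaving out 724 raised it to 1020. With the rank of POSTN in place of its logarithm 14 rose and 109 fell. Hearts of 2018 alone gave 50 rising and 387 falling genes, hearts of the earlier year alone 0 and 0, and with integrity and mitochondrial share in the fit 313 rose and 915 fell. The fits by year covered unlike ranges of POSTN: the lowest heart had 3.52 CPM in 2018 and 32.3 CPM in the earlier year. The comparison of 12 with 12 hearts shares 24 hearts with the continuous fit. Of the called genes 1682 were tested there, and 536 of them were at an unadjusted p under 0.05.

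**Figure D4:**
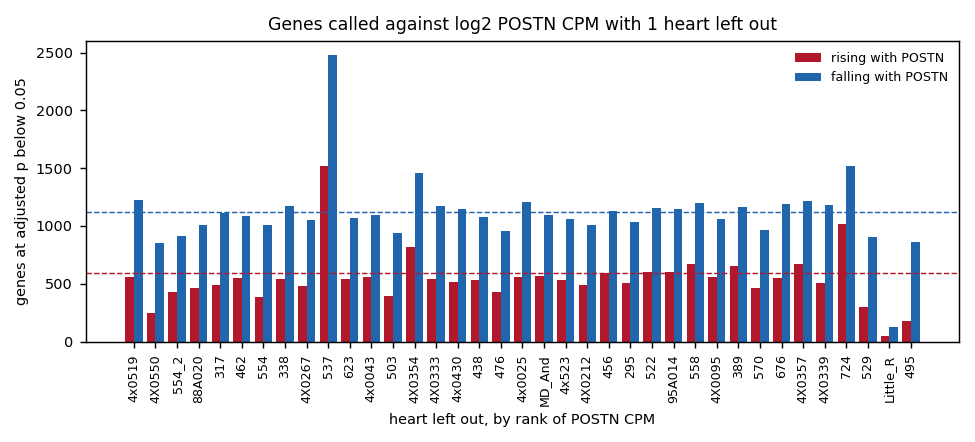
Number of genes that rose (red) or fell (blue) with log2 POSTN CPM at an adjusted p under 0.05 (vertical axis) when the heart named on the horizontal axis, ordered by POSTN CPM, was left out, with dashed lines at the numbers over 37 hearts, 591 and 1120. The bars for Little_R (45 and 122) are the lowest and those for 537 (1516 and 2478) the highest.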

How the data were processed

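RNA-seq counts from post-mortem heart tissue of 38 chimpanzees were used, 1 library per animal, so that p-values measure the spread between animals, some of whom are related. Raw gene counts deposited by the authors, which STAR had obtained for 31373 genes of Pan_tro_3.0 (version 2.6.1b in the submitters' processing notes), entered the main fit. The library kit does not mark strand, so reads of overlapping antisense genes cannot be told apart. Symbols for 18040 of these genes came from a table of gene names. A second table of counts that the authors deposited, on 44125 genes with exons orthologous to human, made with featureCounts 1.6.3 as the file header states, served as an alternative. Over all deposited files, 52 columns of animals or people that are no sample of this series were not used. A matrix of standardized and quantile normalized values was not used. Extraction year, RIN, sex, age, center and virus note came from the study's sample table.

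Library size was the column total without the 13 mitochondrially encoded genes. Genes were kept with filterByExpr, scaled by TMM and tested with edgeR 4.0.16 (quasi-likelihood test) with extraction year and group as terms, and p-values were adjusted by the Benjamini-Hochberg method over all genes tested except POSTN, with a threshold of 0.05. POSTN remained among the genes in DESeq2's own adjustment and in the fit to orthologous exon counts. Intervals of fold changes cover 95%. Alternatives were DESeq2 1.42.0, limma 3.58.1 (voom), other scalings, filters, covariates and choices of hearts, and log2 POSTN CPM as a continuous measure. RIN, age, count and mitochondrial share were compared by 100000 permutations within extraction year, and year, sex, center and virus note by Fisher's exact test. The steps were tested on simulated counts of the 24 hearts. At an adjusted p under 0.05 the edgeR fit found 63 of 198 simulated 2-fold changes and 167 of 200 simulated 4-fold changes. Other tools were R 4.3.3, Python 3.11.15, pandas 2.3.3, numpy 2.4.6 and scipy 1.17.1.

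The hearts compared, the 28 gene lists and the genes named were chosen with earlier results of these data known. The genes named were POSTN, a fixed set of matrix, TGF-beta, cell type and muscle genes, up to 12 called genes in each direction, of which there were 0, and from each list members among the 4 with the largest fold change, with further genes that the text marks as named after their values were seen.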

Additional observations from a re-analysis of the deposited data

How the results depend on the processing

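No alternative other than DESeq2, the continuous fit and the orthologous exon counts called a gene at an adjusted p under 0.05. DESeq2 called 5 higher and 10 lower genes, the continuous fit 591 and 1120, and the orthologous exon counts 1 and 0. POSTN, which had chosen the groups, was among the genes adjusted by DESeq2 and those tested on orthologous exon counts. The 1 call on orthologous exon counts is therefore not counted as a result on another gene. Over the other alternatives, counts of genes at an unadjusted p under 0.05 were 459 to 2494, and with each of the 24 hearts left out in turn 531 to 2221. Fits that added RIN with mitochondrial share, or left out 537 and Little_R with no new ranking, and all alternatives to the continuous fit, were chosen after seeing the data. For the continuous fit, rising and falling genes were 1010 and 1448 with DESeq2, 345 and 595 with limma-voom, 14 and 109 on ranks, 313 and 915 with RIN and mitochondrial share, 576 and 827 without 537 and Little_R, 5 and 22 without the 3 hearts with the least POSTN, 50 and 387 in 2018, 0 and 0 in the earlier year, and 45 to 1516 and 122 to 2478 with 1 heart left out. The cause of these differences was not tested. The interaction of group and extraction year was not run, with 2 periostin-low hearts of the earlier year. No paired analysis was possible because the groups share no replicate numbers that tie hearts together.

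List medians that moved by more than the spread between hearts were those of atrial genes with 549 kept (-1.12), and with hearts of the earlier extraction year alone those of the epicardial (0.014), neutrophil (2.47), T and NK (2.39), B and plasma (5.07), red cell (3.27), cell cycle (-2.03) and acute stress lists (0.18). The B and plasma list had 0.48 with no extraction year in the fit, 1.25 with mitochondrial share and 0.68 with RIN and mitochondrial share, the valve list 0.066 with the stricter filter, and the cell cycle list 0.20 with library sizes that include mitochondrially encoded genes. With 1 heart left out the ranges were 0.12 to 0.67 for the valve, -1.64 to 0.49 for the B and plasma, -0.085 to 1.34 for the adipocyte and -1.17 to 0.11 for the cell cycle list.

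The named genes below took the other sign in their log2 fold change, and none of them had passed the adjusted threshold. With no extraction year the values were COL1A1 0.12, COL3A1 0.024, PDGFRA -0.010, S100A8 0.074 and CD163 0.39. With the mitochondrial share as a further covariate the values were COL1A1 0.39, COL1A2 0.45, COL3A1 0.52, TGFB3 0.081, DCN 0.28, TCF21 0.071, MYH6 -0.28 and HBB 1.21. With hearts of 2018 alone the values were COL1A1 0.096, COL3A1 0.014, TNC 0.26, TGFB2 -0.068, TGFB3 0.021 and ACTA2 -0.16. With both RIN and mitochondrial share as covariates the values were COL1A1 0.19, COL1A2 0.26, COL3A1 0.29, TGFB3 0.0075, DCN 0.17, MYH6 -0.24 and HBB 1.19. With hearts of the earlier year alone the values were COL1A2 0.16, FN1 -0.079, THBS4 -0.35, DCN 0.67, MYH6 -0.017, S100A8 1.62, CD163 0.10, HBB 2.90, COL12A1 -0.041, ADAMTS8 -0.091, DNAJB1 0.18, HSPA1B 0.30 and LAMA2 -0.097. With limma-voom the values were COL3A1 0.087, DCN 0.16, MYH6 -0.68 and HBB 0.82. With 549 kept in the ranking the values were COL3A1 0.072, LOX -0.083, TGFB2 -0.038, ACTA2 -0.62 and MYH6 -0.51. With RIN as a further covariate the values were FN1 -0.0027, TGFB2 -0.22 and PDGFRA -0.014. With 537 and Little_R left out and a new ranking the values were FN1 -0.19, THBS4 -0.041, COMP -0.35, LOX -0.18, PDGFRA -0.29, ACTA2 -0.61 and KCNJ3 0.36. With 537 and Little_R left out and no new ranking the values were FN1 -0.098, LOX -0.18, TGFB2 -0.035, PDGFRA -0.28, ACTA2 -0.24 and COL12A1 -0.026. With library sizes that include mitochondrially encoded genes the values were COMP -1.63, LOX -0.033, PDGFRA -0.46, ACTA2 -0.58, COL12A1 -0.043 and MKI67 0.37. With DESeq2 the value was TGFB2 -0.019. With RLE size factors the value was TGFB2 -0.018. With a filter of at least 1 CPM in 12 hearts the value was TGFB2 -0.021. With sex as a further covariate the values were TGFB2 -0.086 and MYH6 -0.50. With POSTN scaled by the orthologous exon total the values were TGFB3 0.0089, ITGB5 -0.025 and MYH6 -0.15. With no filter on low counts the value was DCN 0.0088. With 1 heart left out, the genes that changed sign had ranges of COL1A1 -0.72 to 0.23, COL1A2 -0.76 to 0.14, COL3A1 -0.70 to 0.31, FN1 -0.30 to 0.56, THBS4 -0.043 to 1.09, COMP -1.44 to 2.42, LOX -0.32 to 0.33, TGFB2 -0.19 to 0.23, TGFB3 -0.33 to 0.058, ITGB5 -0.012 to 0.15, DCN -0.52 to 0.43, PDGFRA -0.50 to 0.41, TCF21 -0.81 to 0.12, ACTA2 -0.25 to 0.29, MYH6 -0.39 to 0.37, NPPA -0.19 to 5.53, HBB -1.25 to 0.70 and COL12A1 -0.13 to 0.88.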

Other observations

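LRG1 and ICAM1, outside the lists above, also had their highest values in 570, 529 or Little_R. LRG1, a leucine-rich glycoprotein of the acute phase, was at 336 CPM in 570 and 109 CPM in Little_R and at most 7.69 CPM in the other 22 hearts, with a median of 1.03 CPM in periostin-high and 1.73 CPM in periostin-low hearts and a log2 fold change of -4.71 ± 1.04 (SE, adjusted p = 0.361 in edgeR's quasi-likelihood test), which was -3.47 without 537 and Little_R. ICAM1, an adhesion molecule that endothelial cells display when exposed to cytokines, had -2.09 ± 0.64 (SE, adjusted p = 0.678 in the same edgeR test), with medians of 15.9 and 20.7 CPM, and -1.65 without 537 and Little_R. Its highest values were 252 CPM in 529, 205 CPM in Little_R and 153 CPM in 570. Over 37 hearts its slope on log2 POSTN CPM was -0.62 ± 0.092 (SE, adjusted p = 5.1e-05 in edgeR's quasi-likelihood test), called whichever 1 heart was left out, and it was -0.32 (adjusted p = 0.206) without the 3 hearts that had the least POSTN. Both genes were named after their values were seen.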
